A study of Homo sapiens with 6 samples.

Results

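The genes described here make fatty acids and build them into membrane and storage lipids. They were listed with earlier results of these data known. The list held 54 genes, chosen by symbol for known roles in fatty acid synthesis, desaturation, elongation and activation, in glycerolipid synthesis and in lipid droplets. Of these, 53 were among the 17153 genes in the files and 50 of the 53 were expressed highly enough to be tested. The expression of GPAM was not analysed here. MLXIPL, THRSP and ACSL5 stayed under 0.4 FPKM in all 6 libraries.

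The RNA came from SNU449, an established human cell line of hepatocellular carcinoma. Both groups carried a transfected small interfering RNA for 48 h, a control one (siControl, n = 3 libraries) or one against OXTR, the oxytocin receptor gene (siOXTR, n = 3 libraries). The labels do not say whether the 3 libraries of a group came from separate cultures, so p-values refer to the variation among these 6 libraries alone, and that variation may be technical. All values are from this 1 line, and the sources used here do not give the siRNA sequences.

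Fatty acids are made in the cytosol from acetyl-CoA, which ACLY cuts from citrate. ACACA turns acetyl-CoA into malonyl-CoA and FASN joins the units into palmitate. SCD and the FADS enzymes add double bonds, and the elongation cycle of the endoplasmic reticulum lengthens the chain. Acyl-CoA synthetases of the ACSL family activate fatty acids, and GPAT, AGPAT and DGAT enzymes attach them in turn to a glycerol backbone, with LPIN enzymes removing a phosphate before the last step, to give triglyceride, which is stored in droplets coated by perilipins. In liver cells the pathway is under the control of the transcription factor SREBP-1, the product of SREBF1, and of ChREBP, the product of MLXIPL.

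Values are FPKM, the fragments mapped to a gene scaled by its length and by the number of mapped fragments, so levels can be compared between genes. A log2 change is the mean of log2(FPKM + 1) in siOXTR minus that in siControl. For genes of low level it comes out smaller than the true ratio, and a fold is the ratio of the mean FPKM. A gene is said to have risen or fallen where its adjusted p was under 0.05 in limma, with Benjamini-Hochberg adjustment over all 11655 genes tested. The values are shares of each library, so neither a change in total RNA per cell nor a change in a part of the cells can be told apart from a change in every cell.

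The promoters of 4 genes, chosen with their changes known and from both directions, are shown for what stands before their starts. Each is the 250 bases before the start in the RefSeq table for GRCh38.p14, written 5′ to 3′ along the gene. Capitals mark CCAAT, the word bound by the factor NF-Y, and CACGTG, an E-box, on either strand. SCD, ACSL3 and LPCAT3 fell and PLIN2 rose. The windows are SCD at chr10:100346983-100347232 (+ strand), ACSL3 at chr2:222860786-222861035 (+ strand), LPCAT3 at chr12:7018477-7018726 (- strand) and PLIN2 at chr9:19127493-19127742 (- strand).
SCD: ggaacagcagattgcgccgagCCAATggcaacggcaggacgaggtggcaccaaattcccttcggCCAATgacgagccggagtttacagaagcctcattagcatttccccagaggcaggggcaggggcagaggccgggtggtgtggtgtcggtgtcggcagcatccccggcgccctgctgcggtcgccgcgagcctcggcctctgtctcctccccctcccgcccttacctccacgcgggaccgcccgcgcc
ACSL3: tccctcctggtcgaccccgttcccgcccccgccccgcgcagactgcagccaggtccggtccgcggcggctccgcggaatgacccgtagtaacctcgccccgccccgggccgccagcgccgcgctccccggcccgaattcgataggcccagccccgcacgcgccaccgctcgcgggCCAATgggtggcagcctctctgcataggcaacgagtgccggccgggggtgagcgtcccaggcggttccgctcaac
LPCAT3: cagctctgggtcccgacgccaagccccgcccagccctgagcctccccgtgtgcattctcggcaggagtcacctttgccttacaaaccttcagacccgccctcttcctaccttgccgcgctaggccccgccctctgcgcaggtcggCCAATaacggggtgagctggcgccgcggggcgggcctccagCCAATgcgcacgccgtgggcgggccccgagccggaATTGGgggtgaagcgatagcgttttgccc
PLIN2: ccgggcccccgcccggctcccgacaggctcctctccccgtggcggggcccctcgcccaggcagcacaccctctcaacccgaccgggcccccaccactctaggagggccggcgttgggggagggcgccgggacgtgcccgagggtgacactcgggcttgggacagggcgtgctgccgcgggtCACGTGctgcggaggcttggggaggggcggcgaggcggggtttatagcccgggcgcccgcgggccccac

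CCAAT stood 229 and 186 bases before the start of SCD, 75 bases before that of ACSL3, and 105, 64 and 29 bases before that of LPCAT3. The PLIN2 window held no CCAAT and 1 CACGTG, 69 bases before the start. Of the 54 genes, 43 had at least 1 such window in the table. FASN, OLAH, DGAT1, DGAT2, GPAT4, AGPAT5, LPIN3, FABP5, MGLL, HSD17B12 and CHKA had none and could not be searched. The 43 include GPAM, MLXIPL, THRSP and ACSL5, whose expression was not tested. The percentages set against the 43 are of tested genes alone. CCAAT was in a window of 21 of the 43 (48.8%), against 42.0% of the 9546 tested genes with a window. It was in 16 of the 29 with a window that fell, in 6 of the 10 that fell by at least 1 on the log2 scale, and in 2 of the 7 that rose, FADS3 and PLIN3. FADS2, ELOVL2, ELOVL6 and HACD2, which fell by at least 1, held none, so the promoters shown do not stand for all genes of their direction. GGGCGG, a word bound by SP1, was in 37 of the 43 (86.0%), against 75.9%. It was in 27 of the 29 that fell, in all 10 that fell by at least 1 on the log2 scale, and in 6 of the 7 that rose. TCACNCCAC, a word bound by SREBP, was in 2 of the 43, against 1.13% of tested genes, and these were ACSL1 and PNPLA2. CACGTG was in 4 of the 43, against 11.3%. It was in 2 of the 29 that fell, ELOVL4 and ELOVL5, and in 2 of the 7 that rose, LPIN2 and PLIN2. TGATGNAAN, a word of ATF4 and CHOP sites, was in none of the 43, against 2.22%. A gene with several windows was counted if any held the word on either strand. CCAAT and GGGCGG overlapped in 1 of the 69 windows of the listed genes, and no other pair of words did. A word in such a window is a description and does not show a bound site.

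OXTR itself was lower in every siOXTR library, at 26.5, 26.6 and 24.6 FPKM in siControl and 6.03, 6.11 and 6.14 FPKM in siOXTR. Summed FPKM ranged from 412464 to 415902 over siControl and from 424168 to 429456 over siOXTR. Pearson correlations of log2 values across tested genes, which are not independent replicates, were 0.997 to 0.998 within a group and 0.922 to 0.923 across groups. The files held 14 of 15 hepatocyte markers, of which only FGA and CPS1 were tested. ALB was at most 0.14 FPKM in any library and APOB was listed at 0 in all 6. The summed level of those markers was 22.3 to 24.3 FPKM in siControl and 7.02 to 7.81 FPKM in siOXTR, and its part in the lipid results was not tested. Of 5 adipocyte markers, 4 were in the files, with a sum of 1.35 to 1.99 FPKM in siControl and 2.74 to 3.06 FPKM in siOXTR. CIDEC made up most of that sum, at 1.25 ± 0.263 FPKM in siControl and 2.54 ± 0.21 FPKM in siOXTR (SD, n = 3). ADIPOQ, LEP and PLIN1 were each at most 0.37 FPKM in any library, and none of the 4 was at 0 in all libraries of a group.

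Most of the lipid synthesis genes were lower in siOXTR, and the droplet coat gene PLIN2 and the thioesterase gene OLAH were far higher. Of the 50 genes tested, 36 fell, 10 rose and 4 did not pass the threshold. Over all genes tested, 44.8% fell and 37.7% rose, so 82.5% changed in one direction or the other, against 92% in the list. The balance over all genes turned with the scaling, to 4801 higher and 4714 lower under quantile scaling and 4902 higher and 4593 lower under median-ratio scaling, against 4395 and 5218. Falls of at least 1 on the log2 scale were seen in 12 of the 50 (24%), against 6.84% of all genes tested, and rises of that size in 2 of the 50 (4%), against 4.71%. The groups of libraries did not overlap in 44 of the 50, against 83.0% of all genes tested. The median log2 change was -0.45 in the list and -0.06 over all genes tested. The list was chosen with earlier results of these data known, so these contrasts describe it and are not an independent test. ACACB and DGAT2 passed the filter on low values through siControl alone and OLAH through siOXTR alone, so these 3 had to differ.

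**Figure D1:**
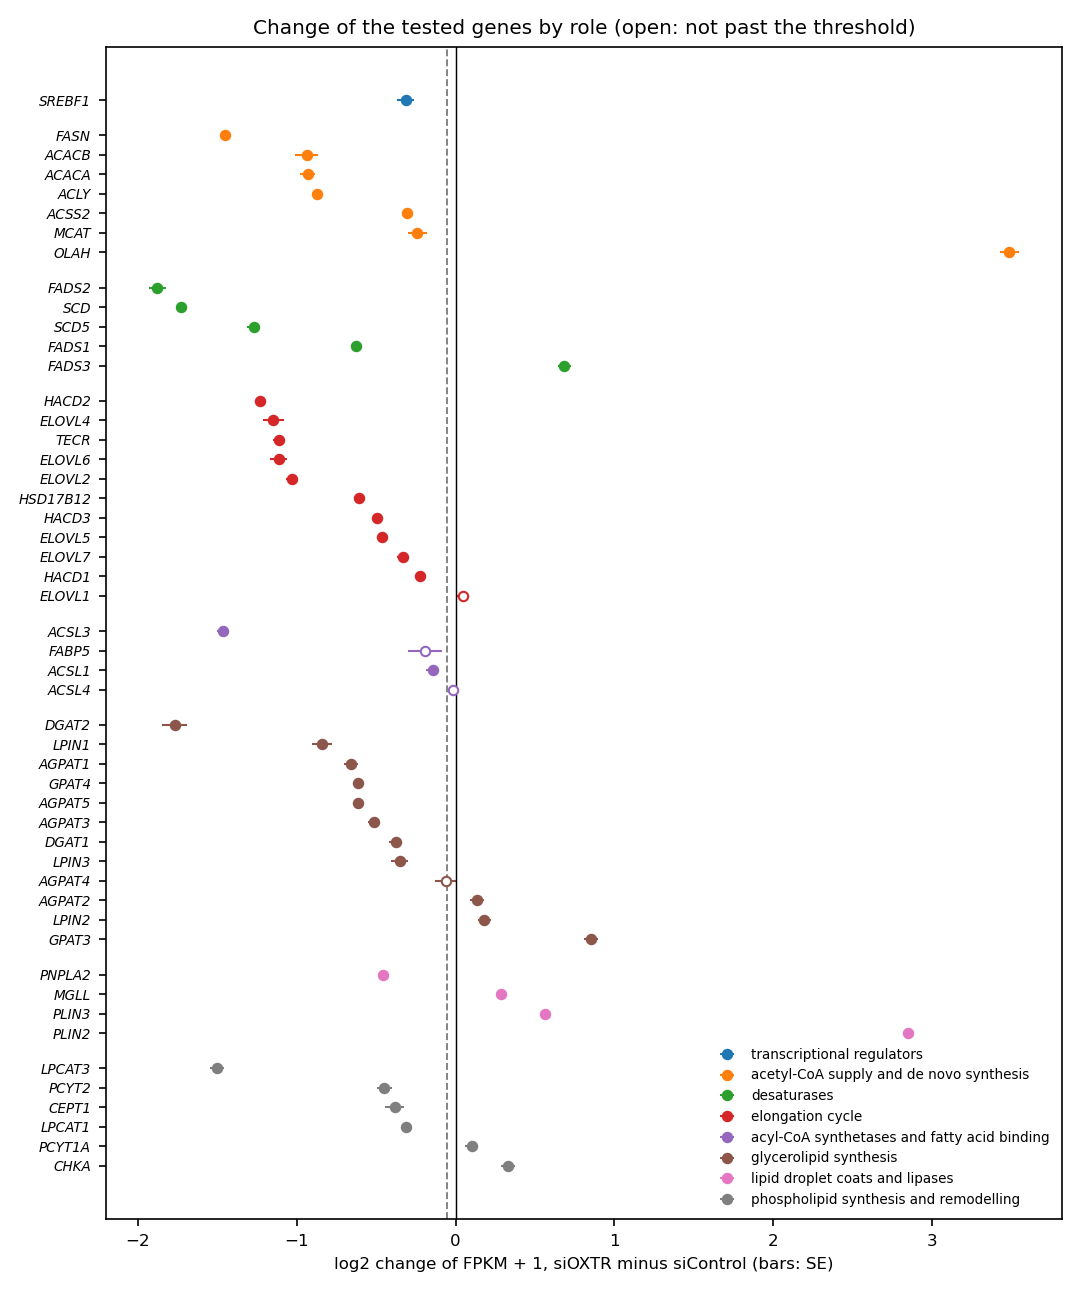
Log2 change of FPKM + 1 (siOXTR minus siControl, x axis) for the 50 tested genes in rows, coloured by role, with the standard error as a bar. Filled points passed the threshold and open points did not, the dashed line is the median of all genes tested (-0.06), and OLAH (3.49) and PLIN2 (2.85) stand far to the right while most others lie left of 0.

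Of the regulators, only SREBF1 was tested. It was at 12.9, 14.5 and 13.1 FPKM in siControl and at 10.1, 11.2 and 10.6 FPKM in siOXTR. The highest siOXTR library was below the lowest siControl library, and SREBF1 fell by 0.32 on the log2 scale (SE 0.05, limma adjusted p = 2.63e-04). MLXIPL was at 0.11 to 0.26 FPKM over the 6 libraries. THRSP, which encodes a small protein that promotes lipid synthesis, was listed at 0 in 5 of them and at 0.10 FPKM in siControl library 1.

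Of the 7 genes for acetyl-CoA supply and fatty acid synthesis, ACLY, ACSS2, ACACA, ACACB, FASN and MCAT fell and OLAH rose. FASN, which encodes the multi-domain fatty acid synthase, was at 124, 128 and 123 FPKM in siControl and at 44.1, 46.4 and 44.9 FPKM in siOXTR (log2 change -1.45, SE 0.03, limma adjusted p = 1.86e-11). ACLY had a mean of 153.9 ± 4.33 FPKM in siControl and of 83.7 ± 0.797 FPKM in siOXTR (SD, n = 3), a 1.84-fold lower level. The level of ACACA, the cytosolic acetyl-CoA carboxylase, went from 21.2 ± 0.719 to 10.7 ± 0.667 FPKM (SD, n = 3). The mitochondrial-membrane form ACACB was at 1.94, 1.87 and 2.06 FPKM in siControl and at 0.60, 0.51 and 0.52 FPKM in siOXTR. Its log2 change was -0.94, or -1.68 with a pseudocount of 0.1. ACACB passed the filter on low values through siControl alone, so the groups had to differ. ACSS2, which makes acetyl-CoA from acetate, and MCAT, the malonyl transferase of mitochondrial fatty acid synthesis, fell less (log2 change -0.31 and -0.24).

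The product of OLAH is a thioesterase that ends chain growth on the synthase early, at medium length. It was at 0.96, 0.72 and 0.83 FPKM in siControl and at 19.5, 19.4 and 19.8 FPKM in siOXTR. All siOXTR libraries were more than 18 FPKM above all siControl libraries. On the log2 scale it rose by 3.49 (SE 0.06, limma adjusted p = 5.45e-12). OLAH passed the filter on low values through siOXTR alone, so the groups had to differ. Its mean FPKM moved from rank 11726 to rank 4140 among the 17153 genes.

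Of the 5 desaturases, 4 fell and FADS3 rose. SCD, which places the first double bond in saturated fatty acids, was at 254, 260 and 260 FPKM in siControl and at 77.6, 76.4 and 77.1 FPKM in siOXTR. That was a fall from rank 194 to rank 948 by mean FPKM. SCD5, a second stearoyl-CoA desaturase, was at 46.1, 43.5 and 42.2 FPKM in siControl and at 17.2, 18.6 and 17.1 FPKM in siOXTR, a fall of 1.27 on the log2 scale (SE 0.04, limma adjusted p = 8.13e-10). The groups were far apart for both genes, and SCD remained the more abundant of the pair.

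The 3 FADS genes are neighbours on chromosome 11 in the RefSeq gene table and moved in different directions. FADS2, which encodes the entry desaturase of polyunsaturated fatty acid synthesis, was at 36.2, 37.7 and 34.3 FPKM in siControl and at 9.42, 8.37 and 9.46 FPKM in siOXTR. The log2 change of FADS2 was -1.88 (SE 0.05, with limma adjusted p = 1.77e-10). FADS1, which acts later in the same route, went from 29.2 ± 0.927 to 18.6 ± 0.530 FPKM (SD, n = 3; log2 change -0.62). FADS3, which desaturates sphingoid bases, was at 15.6, 15.7 and 14.6 FPKM in siControl and at 26.0, 25.2 and 24.5 FPKM in siOXTR. No library of either group came near the other, and FADS3 had a log2 change of 0.69 (SE 0.04, limma adjusted p = 5.24e-08). FADS3 thus held 19.0% ± 0.182 of the summed FPKM of the 3 genes in siControl and 47.6% ± 1.08 in siOXTR (SD, n = 3), and the share of FADS2 went from 44.7% to 17.2%.

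**Figure D2:**
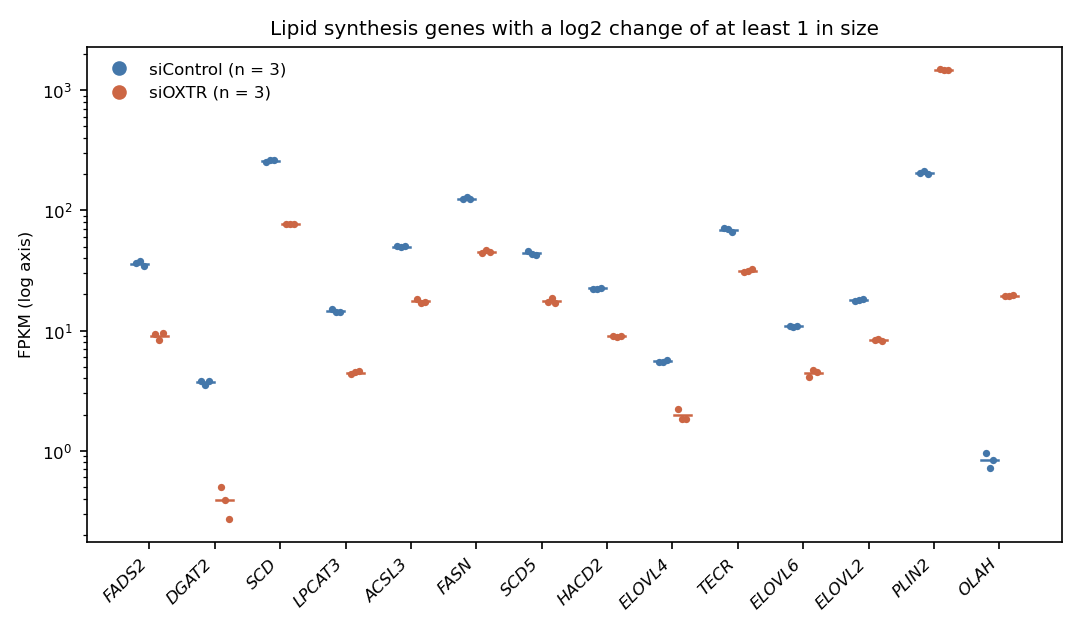
FPKM per library on a log axis for the 14 genes past the threshold with a log2 change of at least 1 in size, ordered from the most negative change to the most positive (points: 3 libraries per group, lines: means). The siControl and siOXTR points do not overlap for any of the 14, which follows largely from picking them by their change. Over all genes tested, the groups did not overlap in 83.0%. OLAH passed the filter on low values through siOXTR alone and DGAT2 through siControl alone. For PLIN2 and OLAH the siOXTR points are the higher ones.

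Of 11 genes of the elongation cycle, 10 fell and ELOVL1 did not pass the threshold. The cycle has 4 steps, and genes of each step fell. For condensation, ELOVL6, which extends palmitate, was at 10.9, 10.7 and 10.9 FPKM in siControl and at 4.13, 4.73 and 4.55 FPKM in siOXTR. ELOVL2, which extends long polyunsaturated chains, was at 17.6, 18.0 and 18.5 FPKM in siControl and at 8.31, 8.45 and 8.2 FPKM in siOXTR. ELOVL4, which makes very long chains, was at 5.5, 5.47 and 5.71 FPKM in siControl and at 2.23, 1.82 and 1.85 FPKM in siOXTR. These 3 fell by 1.11, 1.03 and 1.15 on the log2 scale, with no overlap between groups.

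The more abundant ELOVL genes changed less. ELOVL5, which extends polyunsaturated chains and had the highest level in the family, went from 133 ± 1.87 to 96.2 ± 0.959 FPKM (SD, n = 3; log2 change -0.46). ELOVL1, which extends saturated chains to very long ones, was at 63.4, 62.6 and 58.0 FPKM in siControl and at 60.7, 63.4 and 66.0 FPKM in siOXTR. The groups overlapped (log2 change 0.05, SE 0.04, limma adjusted p = 0.306), although the gene passed under median-ratio scaling (log2 change 0.13, adjusted p = 0.0137). The fall of ELOVL7, another elongase for saturated chains, was 0.33 on the log2 scale.

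For the later steps of the cycle, HSD17B12, which encodes the reductase that follows condensation, went from 61.2 ± 0.423 to 39.9 ± 0.586 FPKM (SD, n = 3; log2 change -0.61). HACD2, a dehydratase, was at 22.3, 22.2 and 22.8 FPKM in siControl and at 8.96, 8.88 and 9.09 FPKM in siOXTR (log2 change -1.23, SE 0.04, limma adjusted p = 2.31e-10). Its paralogs HACD3 and HACD1 had log2 changes of -0.49 and -0.22. TECR, which encodes the reductase of the last step, was at 71.1, 70.0 and 66.0 FPKM in siControl and at 30.5, 31.2 and 32.4 FPKM in siOXTR. Every siOXTR library was far below every siControl library, and TECR fell by 1.11 on the log2 scale (SE 0.04, limma adjusted p = 5.53e-10).

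Of the acyl-CoA synthetases, ACSL3 fell and ACSL4 did not pass the threshold. ACSL3, an enzyme found on the endoplasmic reticulum and on forming droplets, was at 50.03, 49.5 and 50.5 FPKM in siControl and at 18.4, 16.9 and 17.2 FPKM in siOXTR. ACSL4, which prefers arachidonic acid, was at 60.3, 61.9 and 64.6 FPKM in siControl and at 61.6, 62.5 and 60.2 FPKM in siOXTR. The ACSL3 groups were far apart (log2 change -1.47) and the ACSL4 groups overlapped (log2 change -0.02, SE 0.03, limma adjusted p = 0.598). The sign for ACSL4 turned under median-ratio scaling (0.06) and without siControl library 3 (0.01). ACSL4 held 49.4% ± 0.620 of the summed FPKM of the 4 listed ACSL genes in siControl and 67.2% ± 0.683 in siOXTR (SD, n = 3), while ACSL3 went from 39.7% ± 0.676 to 19.1% ± 0.769.

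ACSL1, the main form in fat and liver, was at 13.3, 13.5 and 14.0 FPKM in siControl and at 12.4, 12.5 and 11.8 FPKM in siOXTR. Its small fall (log2 change -0.14, SE 0.04, limma adjusted p = 0.00649) did not pass under quantile (adjusted p = 0.0634) or median-ratio scaling (adjusted p = 0.164). ACSL5 was at 0.13 to 0.36 FPKM. FABP5, which encodes a fatty acid binding protein, was at 14.9, 10.2 and 14.3 FPKM in siControl and at 11.2, 11.4 and 11.1 FPKM in siOXTR. The siControl library 2 was below every siOXTR library and the other siControl libraries above them (log2 change -0.19, SE 0.11, limma adjusted p = 0.123). Without that library FABP5 had a log2 change of -0.35 (limma adjusted p = 5.70e-05).

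**Figure D3:**
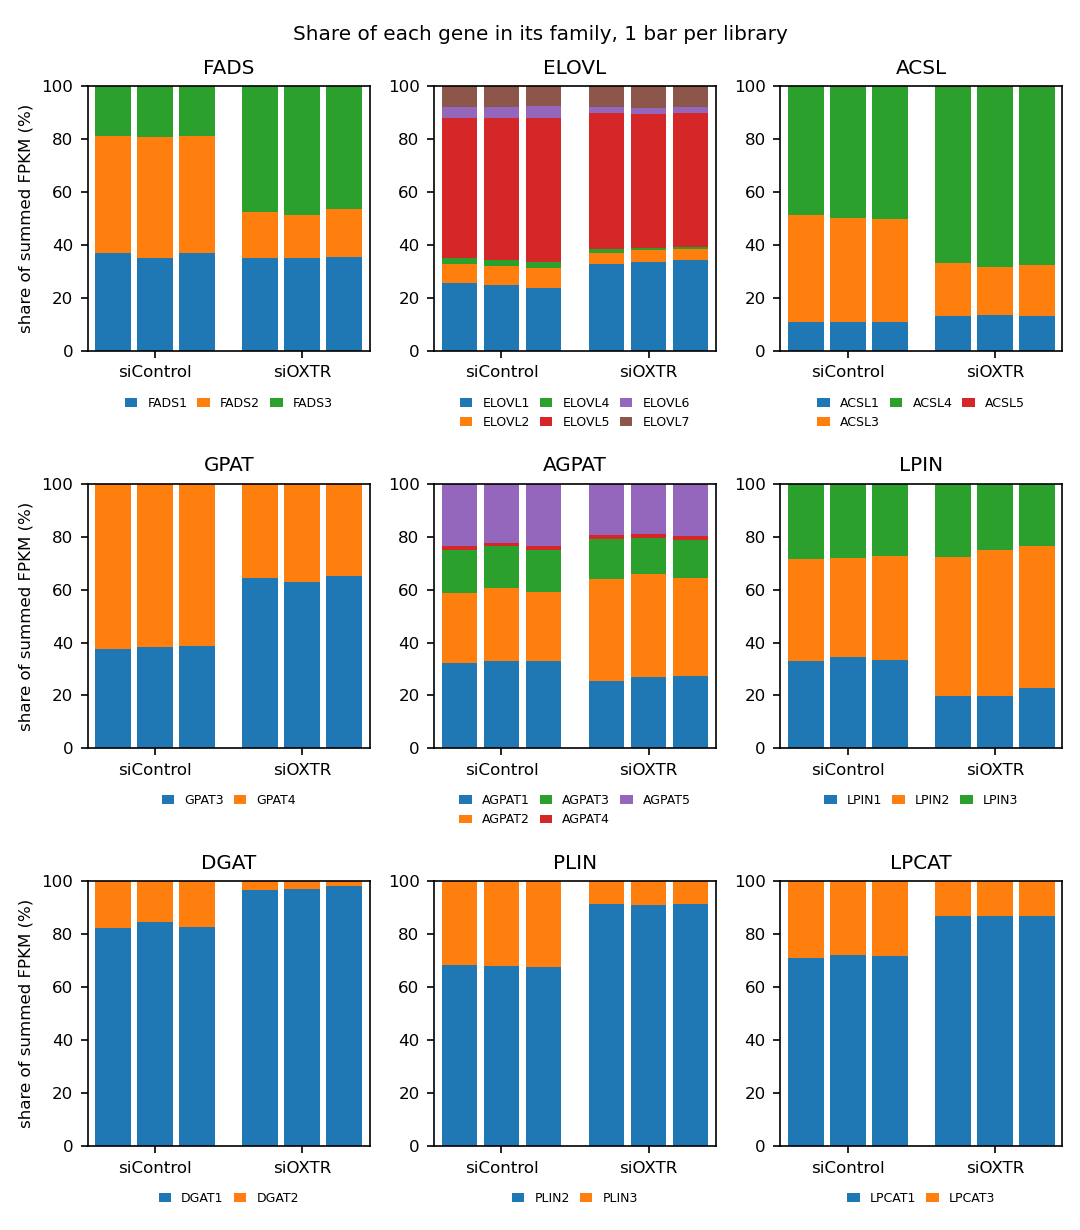
Share of each gene in the summed FPKM of the listed genes of its family (y axis, percent). There is 1 stacked bar for each of the 3 siControl and 3 siOXTR libraries. FADS3, ACSL4, GPAT3, DGAT1 and PLIN2 take larger shares in every siOXTR bar than in any siControl bar.

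Of 12 genes of glycerolipid synthesis tested, 8 fell, 3 rose and AGPAT4 did not pass the threshold. In the first step of the route, GPAT3 and GPAT4 went in opposite directions. GPAT3 was at 16.5, 18.1 and 17.8 FPKM in siControl and at 32.0, 31.0 and 33.7 FPKM in siOXTR, a rise of 0.85 on the log2 scale (SE 0.04, limma adjusted p = 2.07e-08). GPAT4 was at 27.2, 29.0 and 28.1 FPKM in siControl and at 17.8, 18.3 and 17.9 FPKM in siOXTR, with a log2 change of -0.61 (SE 0.03, limma adjusted p = 3.89e-08). GPAT4 was above GPAT3 in every siControl library and below it in every siOXTR library. The share of GPAT3 in the sum of both went from 38.3% ± 0.506 to 64.1% ± 1.21 (SD, n = 3), and their sum was 45.5 ± 1.73 FPKM in siControl and 50.2 ± 1.27 FPKM in siOXTR.

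The AGPAT enzymes add the second acyl chain. AGPAT5 was at 26.8, 27.0 and 26.9 FPKM in siControl and at 17.0, 17.3 and 17.5 FPKM in siOXTR (log2 change -0.61, SE 0.03, limma adjusted p = 1.57e-08). AGPAT1 and AGPAT3 fell as well (-0.66 and -0.51). AGPAT2, the form whose loss causes human lipodystrophy, had a log2 change of 0.13 (SE 0.04, limma adjusted p = 0.0138). That call was lost without siControl library 1 (adjusted p = 0.0533), siControl library 3 (0.0509) or siOXTR library 2 (0.0565). AGPAT4 was near the filter at 1.45 to 1.75 FPKM, with a log2 change of -0.06 (SE 0.07, limma adjusted p = 0.429) that was 0.08 under quantile scaling.

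Lipins remove the phosphate from phosphatidic acid. LPIN1 was at 9.04, 9.97 and 9.36 FPKM in siControl and at 4.55, 4.62 and 5.39 FPKM in siOXTR (log2 change -0.84, SE 0.06, limma adjusted p = 4.67e-07). LPIN3 fell by 0.35 on the log2 scale and LPIN2 rose by 0.18. The summed FPKM of the 3 lipins was 28.2 ± 0.761 in siControl and 23.3 ± 0.302 in siOXTR (SD, n = 3), and LPIN2 held 38.6% ± 0.885 of it in siControl and 53.6% ± 1.23 in siOXTR.

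Of the 2 DGAT genes, whose products complete triglyceride by separate routes, DGAT2 fell to under 1 FPKM. DGAT2 was at 3.78, 3.53 and 3.84 FPKM in siControl and at 0.50, 0.39 and 0.27 FPKM in siOXTR. It fell by 1.77 on the log2 scale (SE 0.08, limma adjusted p = 6.28e-09), and DGAT2 had a log2 change of -3.27 with a pseudocount of 0.01. DGAT2 passed the filter on low values through siControl alone, so the groups had to differ. DGAT1 was at 17.7, 19.4 and 18.4 FPKM in siControl and at 14.1, 13.7 and 14.3 FPKM in siOXTR (log2 change -0.38, SE 0.04, limma adjusted p = 9.26e-06). Both fell, and DGAT1 went from 83.3% ± 1.198 to 97.3% ± 0.792 of their summed FPKM (SD, n = 3).

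Of the genes for droplet coats and lipases, PLIN2, PLIN3 and MGLL rose and PNPLA2 fell. PLIN2 encodes perilipin 2, the coat protein found on droplets of most cell types. It was at 205, 211 and 199 FPKM in siControl and at 1485, 1483 and 1476 FPKM in siOXTR. The groups were far apart and the spread within each was small. The means of 205.0 ± 6.22 and 1481 ± 4.61 FPKM (SD, n = 3) differed 7.23-fold, with a log2 change of 2.85 (SE 0.03, limma adjusted p = 2.35e-13). PLIN2 was at rank 259 of 17153 genes by mean FPKM in siControl and at rank 19 in siOXTR.

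PLIN3, a coat protein that moves between cytosol and droplets, was at 94.7, 98.7 and 95.5 FPKM in siControl and at 142, 145 and 142 FPKM in siOXTR (log2 change 0.56, SE 0.03, limma adjusted p = 7.37e-09). PLIN2 went from 68.0% ± 0.444 to 91.2% ± 0.0850 of the summed FPKM of both (SD, n = 3). PNPLA2, which encodes the lipase that starts triglyceride breakdown, went from 26.4 ± 0.677 to 19.0 ± 0.226 FPKM (SD, n = 3; log2 change -0.46). MGLL, the monoglyceride lipase of the last step, went from 33.2 ± 0.681 to 40.7 ± 0.956 FPKM (SD, n = 3; log2 change 0.28).

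Of 6 genes for phospholipid synthesis and remodelling, 4 fell and 2 rose. LPCAT3, which puts polyunsaturated chains into membrane phospholipids, was at 15.1, 14.2 and 14.3 FPKM in siControl and at 4.34, 4.48 and 4.59 FPKM in siOXTR. The lowest siControl library was above 14 FPKM and the highest siOXTR library under 5 FPKM (log2 change -1.50, SE 0.05, limma adjusted p = 3.21e-10). LPCAT1, which favours saturated chains, was at 37.1, 36.9 and 36.3 FPKM in siControl and at 28.8, 29.3 and 30.1 FPKM in siOXTR (log2 change -0.31, SE 0.03, limma adjusted p = 2.76e-06).

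PCYT2, of the phosphatidylethanolamine route, and CEPT1, which completes both phosphatidylcholine and phosphatidylethanolamine, fell by 0.45 and 0.38 on the log2 scale. CHKA, the choline kinase that starts the phosphatidylcholine route, rose by 0.33 (SE 0.04, limma adjusted p = 4.02e-05). PCYT1A, the regulated enzyme of that route, had a log2 change of 0.10 (SE 0.04, limma adjusted p = 0.0401). This call was lost with no filter on low values (adjusted p = 0.0553) and without siControl library 1 (0.125), siControl library 2 (0.112), siOXTR library 1 (0.0942) or siOXTR library 3 (0.121).

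In the 12 families with 2 or more listed genes measured, 36 shares were compared. An exact two-sided permutation test of 3 against 3 libraries cannot go below p = 0.1, so no share could pass 0.05. This smallest p was reached by 33 of the 36 shares, and FADS1, ELOVL7 and LPIN3 were the exceptions. It marks only that the groups of libraries did not overlap, and FPKM did not overlap in 83.0% of all genes tested. A family here holds listed genes alone, and measured paralogs outside the list were left out of the sums. An example is LPCAT4, with a mean of 17.5 FPKM in siControl and 12.0 FPKM in siOXTR. In a family of 2 such listed genes the shares mirror each other and give the same result.

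The other genes of the pathway, listed by role in the same way, gave the setting. Over all genes tested 44.8% fell and 37.7% rose, and the share of each list below stands against these. Of 15 genes that control SREBP or the lipid-sensing nuclear receptors, 8 fell (53.3%) and 5 rose (33.3%), near the shares over all genes. INSIG1, which holds SREBP in the endoplasmic reticulum and is itself an SREBP target, was at 23.4, 22.5 and 24.2 FPKM in siControl and at 5.31, 5.35 and 4.88 FPKM in siOXTR (log2 change -1.98, SE 0.05, limma adjusted p = 6.05e-11). INSIG2 was 2.69-fold lower, and SREBF2, the gene for the SREBP of cholesterol synthesis, had a log2 change of -0.61. PPARG, which encodes a nuclear receptor that drives fat storage genes, was at 14.8, 15.9 and 15.8 FPKM in siControl and at 67.5, 70.1 and 70.7 FPKM in siOXTR. It rose 4.49-fold (log2 change 2.10, SE 0.04, limma adjusted p = 5.96e-12).

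Of 10 genes tested for NADPH and citrate supply, 5 fell (50%) and 4 rose (40%), near the shares over all genes. SLC25A1, the citrate carrier of mitochondria, was 2.31-fold lower, ME1, the malic enzyme that makes NADPH, was 2.32-fold higher, and MTHFD1, a folate enzyme, was 1.63-fold lower. Of 13 other lipid droplet genes tested out of 22 listed, 6 fell (46.2%) and 5 rose (38.5%), also near those shares. RAB18, a droplet GTPase, was 1.76-fold higher, while FITM2, needed for droplet budding, and HILPDA, an inhibitor of PNPLA2, were 2.30-fold and 1.95-fold lower. PLIN1, PLIN4 and PLIN5, the other perilipin genes, stayed under 0.5 FPKM in all 6 libraries.

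Of 23 other phospholipid genes tested, 17 fell (73.9%) and 5 rose (21.7%), with a median log2 change of -0.51. LPGAT1, MBOAT7 and PTDSS1, enzymes of acyl transfer to lysophospholipids and of phosphatidylserine synthesis, were 2.11-fold, 2.001-fold and 2.48-fold lower. Of 9 genes tested for fatty acid uptake and binding, 5 fell (55.6%) and 3 rose (33.3%). The acyl-CoA binding protein gene DBI fell from 269 ± 7.06 to 108 ± 1.83 FPKM (SD, n = 3), and ACBD3, a Golgi protein gene, was 2.17-fold higher. Of 11 other fatty acid and acylglycerol enzymes tested, 5 fell (45.5%) and 5 rose (45.5%). ELOVL3 passed the filter on low values through siControl alone and so had to differ. It was at 2.96, 3.13 and 3.54 FPKM in siControl and at 0.37, 0.26 and 0.44 FPKM in siOXTR. In that list 3 rose without siControl library 1, siOXTR library 1 or siOXTR library 2. ACOT9, an acyl-CoA thioesterase gene, was 1.44-fold higher and MECR, a reductase gene of mitochondrial fatty acid synthesis, 1.47-fold lower.

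Cholesterol synthesis and fatty acid oxidation stood on either side of the lipid synthesis genes. Of 21 cholesterol synthesis genes, 20 fell (95.2%) and GGPS1 rose, with a median log2 change of -0.88. The rise of GGPS1 was 1.07-fold and did not pass without siControl library 1 or 2 or siOXTR library 1 or 3. IDI1, an isomerase of isoprenoid synthesis, was 3.91-fold lower. Of 23 fatty acid oxidation genes tested, 12 fell (52.2%), 7 rose (30.4%) and 4 did not pass, with a median of -0.18. ACADVL was 1.46-fold higher, and HADH and ECHS1 were 2.20-fold and 1.51-fold lower. METTL7B among the droplet genes and LPCAT2 among the phospholipid genes, both counted as fallen, also passed the filter through siControl alone. The lists were set beside each other as counts, and the differences between them were not tested.

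**Figure D4:**
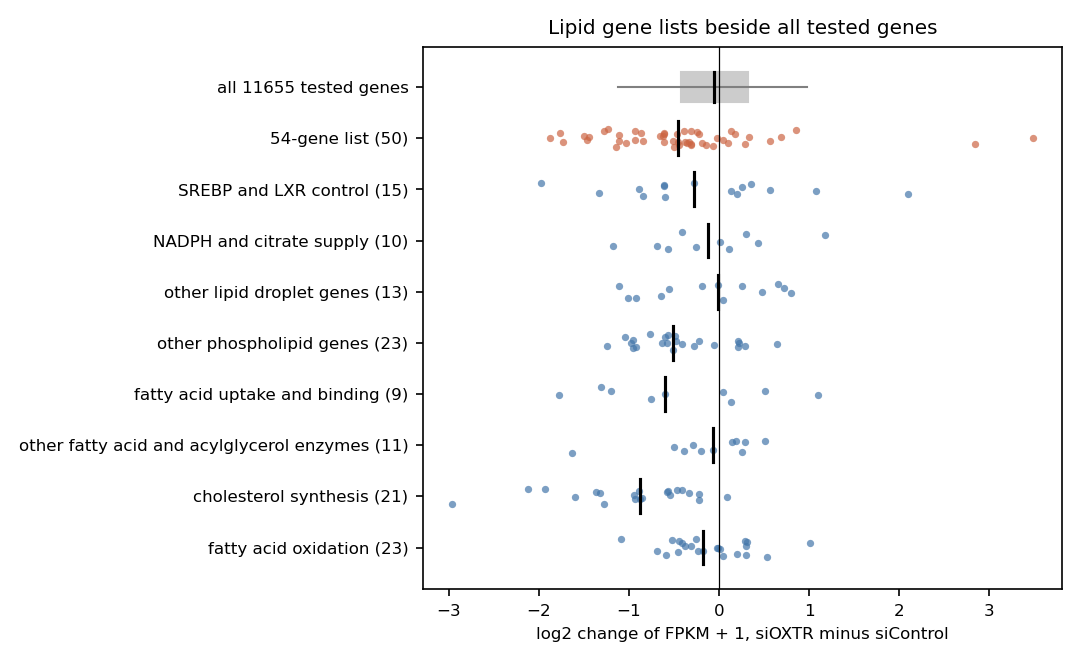
Log2 change of FPKM + 1 (siOXTR minus siControl, x axis) for each tested gene of the 54-gene list (orange) and of 8 other lipid gene lists (blue), with the list median as a black line and the number tested in parentheses. The top row shows all genes tested (box: quartiles from -0.43 to 0.32, line: percentiles 5 to 95 from -1.13 to 0.98), and the list medians run from -0.88 in cholesterol synthesis to -0.02 in other lipid droplet genes.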

How the data were processed

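RNA of 6 SNU449 libraries, 3 siControl and 3 siOXTR, was sequenced on BGISEQ-500 instruments, per the labels. The authors deposited FPKM values with 2 decimals, per the file headers. Not given in the sources used here are the aligner, the counter, the genome build and its annotation, and the treatment of reads shared by paralogs. Depth is unknown: of 1747 low values in 605 genes, 21.1% lay within 0.1 of a whole multiple of the gene's lowest value, against 20% by chance, so no count model was used. The number of libraries and the spread between them limit the precision.

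Values were taken as log2(FPKM + 1). A gene was tested where 3 or more of the 6 libraries had 1 FPKM or more, which left 11655 genes. The test was limma 3.58.1 in R 4.3.3 on the group alone, by empirical Bayes with a mean-variance trend, two-sided, with Benjamini-Hochberg adjustment and a threshold of 0.05. The script was tested on simulated data. Family shares are a gene's percent of the summed FPKM of the listed genes of its family in a library. Alternatives were pseudocounts of 0.1 and 0.01, robust empirical Bayes, a replicate block, median-ratio scaling, quantile scaling, no filter, a filter at 5 FPKM, and each library left out.

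The members and lists were chosen with earlier results of these data known. Named with values per library were genes past the threshold with a log2 change of at least 1 in size and the 2 of smallest adjusted p in each role, and of the other lists the 3 of smallest adjusted p with INSIG1, SREBF2 and OXTR; further genes were named to complete a family or role, and some genes that the rule takes are not reported here.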

Additional observations from a re-analysis of the deposited data

How the results depend on the processing

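The counts of listed genes that rose (8 to 11 over the 14 alternatives) or fell (34 to 37) and of those past 1 on the log2 scale (2 higher, 11 to 13 lower) stayed within 1.5 times the main counts. Of 697 values of single genes under alternatives, 682 kept direction and side of the threshold, 10 no longer passed, 2 newly passed and 3 turned sign; 43 of 50 genes kept both throughout, and the exceptions were ELOVL1, ACSL1, ACSL4, FABP5, AGPAT2, AGPAT4 and PCYT1A. The turns were ACSL4 under median-ratio scaling (log2 change 0.0616) and without siControl library 3 (from -0.0404 to 0.00782 over the libraries left out), and AGPAT4 under quantile scaling (0.0761); none of the 3 passed in either form.

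The median log2 change of the listed genes was -0.38 with no filter, -0.41 under quantile and -0.38 under median-ratio scaling, against -0.45, and the cause was not tested. Quantile scaling moved the share differences (siOXTR minus siControl, percentage points) of HACD2 to -7.26, PLIN2 to 22.7, ACACB to -2.73 and LPCAT3 to -14.2. Counts of the other enzyme list were 3 higher and 3 lower at a filter of 5 FPKM, with fewer genes tested, and its higher count was 3 to 5 with a library left out (3 without siControl library 1, siOXTR library 1 or siOXTR library 2). The higher count of cholesterol synthesis was 0 to 1, since GGPS1 did not pass without siControl library 1 or 2 or siOXTR library 1 or 3.

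Libraries of the same number did not deviate together (correlations -0.01, -0.07 and 0.04). Each deviation was taken from a group mean that included the library itself. These values therefore cannot decide whether libraries of the same number shared a culture or a day. With the replicate block 10 listed genes rose and 36 fell, and 4388 and 5205 of all genes. Depth is unknown, so levels under 1 FPKM, such as DGAT2 in siOXTR, are imprecise.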
